A study of Rattus norvegicus with 16 samples.

Results

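GABA-A receptor subunit genes were examined in rat hippocampus after an iron infusion into the amygdala. The set held 7 genes, Gabra2, Gabra3, Gabra4, Gabra5, Gabrb1, Gabrb2 and Gabrd, chosen by name and matched to array probes through their RefSeq accession. A probe was matched for 5 of the 7, and all 5 passed the filter on dim probes, among 26565 features tested in all. Gabra2 and Gabrb2 had no matched probe and are not analysed here. The tissue was the right hippocampus of 16 male Wistar rats, operated on at 5 weeks of age, with 1 array per rat and 4 rats per group. The Fe day 5, Fe day 15 and Fe day 30 rats received 1 µl of 100 mM FeCl3 at pH 2.2 in the right amygdala and were killed 5, 15 or 30 days later, in what the study names the acute, sub-chronic and chronic phases of injury. The control rats received 1 µl of saline at pH 2.2 and were all killed on day 15. The comparisons at days 5 and 30 therefore also hold a difference in age and in time since infusion. Ferric chloride in the amygdala is a model of limbic epilepsy after bleeding into the brain, and the series text reports seizures in Fe rats and none in control rats, without seizure counts. The hippocampus was removed whole, on the injected side.

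GABA-A receptors are chloride channels built of several subunits around a pore, and they carry most fast inhibition in the brain. Many receptors with a gamma subunit gather at synapses and give brief phasic currents. Receptors with a delta subunit, or with alpha5, lie largely outside synapses and give a tonic current that sets how easily a neuron fires. In the hippocampus, delta pairs mainly with alpha4 in granule cells of the dentate gyrus, and alpha5 is concentrated in pyramidal cells of CA1 and CA3. Alpha2 and alpha3 are counted here as synaptic alpha subunits, and beta subunits occur in both kinds of receptor. Alpha3 and alpha4 have known exceptions to this division.

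Between 74.2% and 81.6% of the transcript probes of an array were well above background, and the 75th percentile of the signal, on which each array was scaled, lay between 553 and 924 intensity units. Pearson's r over all features was 0.977 to 0.993 between arrays of the same Fe group and 0.993 to 0.995 between control arrays. Of the hippocampal subfield markers listed, 7 of 12 were measured for the dentate gyrus, 6 of 8 for CA1 and subiculum together and 7 of 9 for CA3. Other subfields had no list. Markers of the choroid plexus and of meninges were high on 3 Fe arrays, replicates 2 and 3 of Fe day 5 and replicate 3 of Fe day 30. The levels below are log2 signals relative to the 75th percentile of the array, so that a value of 0 is the level of that percentile. A level is comparable between arrays for 1 probe and not between probes. The 3 comparisons with control share the same 4 control arrays and are not independent of one another. Each p rests on the spread among these rats, with 1 array for each.

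RefSeq windows of 300 bases around the transcription start (assembly GRCr8) were available for 6 of the 7 genes, all but Gabra2. They are shown for Gabra4 and Gabrd, the delta receptor partners, and for Gabra3, whose signal ran opposite to that of Gabra4 among the Fe arrays. Capitals mark the GC box GGGCGG, or CCGCCC where it lies on the other strand, and all 3 are written 5′ to 3′ in the sense of the gene.
Gabra4, chr14:36944497-36944796, plus strand: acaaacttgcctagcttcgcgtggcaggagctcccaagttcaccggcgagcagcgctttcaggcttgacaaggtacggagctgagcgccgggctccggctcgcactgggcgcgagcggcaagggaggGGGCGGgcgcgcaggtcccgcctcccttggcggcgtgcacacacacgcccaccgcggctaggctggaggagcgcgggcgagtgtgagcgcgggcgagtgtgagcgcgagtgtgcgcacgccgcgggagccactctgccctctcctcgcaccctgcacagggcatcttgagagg
Gabrd, chr5:171252660-171252959, minus strand: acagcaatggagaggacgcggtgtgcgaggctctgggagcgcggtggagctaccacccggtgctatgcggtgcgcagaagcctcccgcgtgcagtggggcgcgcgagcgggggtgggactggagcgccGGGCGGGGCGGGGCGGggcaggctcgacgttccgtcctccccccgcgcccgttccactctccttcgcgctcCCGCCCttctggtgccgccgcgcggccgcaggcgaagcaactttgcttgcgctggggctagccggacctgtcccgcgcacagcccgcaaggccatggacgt
Gabra3, chrX:155543821-155544120, minus strand: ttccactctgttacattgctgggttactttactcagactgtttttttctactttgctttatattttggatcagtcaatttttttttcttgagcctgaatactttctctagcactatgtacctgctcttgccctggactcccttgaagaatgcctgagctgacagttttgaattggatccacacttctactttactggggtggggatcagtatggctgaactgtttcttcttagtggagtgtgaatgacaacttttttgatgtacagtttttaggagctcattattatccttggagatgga

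The windows of Gabra4, Gabrd and Gabra5 were rich in G and C, at 70.7%, 73.7% and 76.3%, with 35, 40 and 42 CpG pairs. The Gabra3 window had 39.3% G and C and 0 CpG pairs, against a median of 51.7% G and C over all promoters in the table. The GC box was present in these 3 GC-rich windows and in 33.1% of 33469 promoters. TATAAA was present in Gabra3 alone among the 6, and in 14.2% of promoters. CANNTG, the E-box, was present in Gabra5 alone and in 72.1% of promoters. The EGR site GCGTGGGCG (0.544% of promoters), the cyclic AMP response element TGACGTCA (1.83%) and its shorter form TGACG (21.2%), which the longer one contains, were found in 0 of the 6. Both strands were searched. A match is a description of the letters and no evidence of binding, and an absent match says only that these letters are not in the window.

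The alpha4 subunit, Gabra4, had a lower signal in all 12 Fe arrays than in any control array. Its log2 levels were −0.32, −0.74, 0.14 and 0.01 in Fe day 5, −0.18, −0.18, 0.06 and −0.67 in Fe day 15, and −0.28, −0.29, −0.20 and 0.12 in Fe day 30, against 0.26, 0.38, 0.24 and 0.22 in control. The group means were −0.23 ± 0.39, −0.24 ± 0.30 and −0.16 ± 0.19 in Fe day 5, 15 and 30, against 0.28 ± 0.07 in control (SD, n = 4 each). The 4 control arrays lay close together, and the lowest Fe arrays were replicate 2 of Fe day 5 and replicate 4 of Fe day 15.

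The log2 difference of Gabra4 from control was −0.50 ± 0.18 (SE) at day 5, −0.52 ± 0.18 at day 15 and −0.44 ± 0.18 at day 30, so that the Fe means were 1.42, 1.43 and 1.36 times lower. The unadjusted p was 0.0145, 0.0121 and 0.0289 in limma on the 3 days, and the adjusted p over 26565 features was 0.473, 0.335 and 0.633. None of the 3 passed the threshold of 0.05. In the F-test over the 4 groups Gabra4 had an unadjusted p of 0.0370 and an adjusted p of 0.580, where 8.34% of features had an unadjusted p under 0.05 and 0.0% were called. A full separation of 12 Fe arrays below 4 control arrays was found for 156 features, 0.587% of those tested, and an unadjusted p under 0.05 with a lower mean on all 3 days for 286 features, 1.08%. By unadjusted p, Gabra4 stood among the lowest 2.77%, 3.61% and 4.42% of features at days 5, 15 and 30.

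The delta subunit, Gabrd, which marks extrasynaptic receptors in granule cells, was below control in the mean of each Fe group without passing the test. Its log2 levels were 2.19, 1.24, 2.45 and 2.71 in Fe day 5, 2.22, 2.31, 2.17 and 1.97 in Fe day 15, and 2.34, 2.42, 2.14 and 2.61 in Fe day 30, against 2.55, 2.78, 2.39 and 2.67 in control. All 4 Fe day 15 arrays lay below all 4 control arrays, while the groups overlapped at days 5 and 30. The difference was −0.45 ± 0.23 at day 5 (limma, adjusted p = 0.496), −0.43 ± 0.23 at day 15 (adjusted p = 0.489) and −0.22 ± 0.23 at day 30 (adjusted p = 0.802). Replicate 2 of Fe day 5 decided the size at day 5, where the difference was −0.15 without it.

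The alpha5 subunit, Gabra5, gave its lowest group mean at day 15. Its log2 levels were 0.17, 0.53, 0.38 and −0.12 in Fe day 5, −0.31, 0.25, 0.10 and −0.50 in Fe day 15, and 0.59, 0.15, −0.38 and 0.28 in Fe day 30, against 0.43, 0.20, 0.68 and 0.12 in control. The groups overlapped on every day, and at day 15 3 of 4 Fe arrays lay below all control arrays. The difference was −0.12 ± 0.22 at day 5, −0.47 ± 0.22 at day 15 and −0.20 ± 0.22 at day 30, with adjusted p-values of 0.862, 0.430 and 0.805 in limma. The unadjusted p at day 15 was 0.0463.

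The alpha3 subunit, Gabra3, was the one measured member with a positive difference on all 3 days. Its log2 levels were −2.05, −1.51, −3.34 and −1.91 in Fe day 5, −2.19, −2.32, −3.08 and −1.29 in Fe day 15, and −2.45, −2.11, −2.13 and −2.84 in Fe day 30, against −2.92, −3.23, −2.94 and −2.71 in control. The Fe arrays lay above all control arrays in 9 of 12 cases, and replicate 3 of Fe day 5 was lower than every control array. The difference was 0.75 ± 0.38 at day 5, 0.73 ± 0.38 at day 15 and 0.57 ± 0.38 at day 30, with adjusted p-values of 0.486, 0.470 and 0.697 in limma. The SE of Gabra3 was the widest of the 5 members. The probe was dim, with 60.1 to 112 intensity units in control, yet well above background on all 16 arrays. With normexp background correction the differences were 0.50, 0.52 and 0.36, and without replicate 4 of Fe day 15 the day 15 difference was 0.42.

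The beta1 subunit, Gabrb1, which can join both synaptic and extrasynaptic receptors, had group means within 0.07 of control on the log2 scale. They were 3.09 ± 0.23, 3.04 ± 0.25 and 3.00 ± 0.19 in Fe day 5, 15 and 30, against 3.07 ± 0.02 in control (SD, n = 4 each). Individual Fe arrays lay between 2.68 and 3.31 and straddled the narrow control range of 3.04 to 3.09. The 95% interval of the difference was −0.27 to 0.31 at day 5, −0.32 to 0.25 at day 15 and −0.35 to 0.22 at day 30, with adjusted p-values of 0.972, 0.946 and 0.901 in limma. Gabrb1 lies next to Gabra4 on chromosome 14 in GRCr8, and the 2 genes are read in opposite directions.

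**Figure D1:**
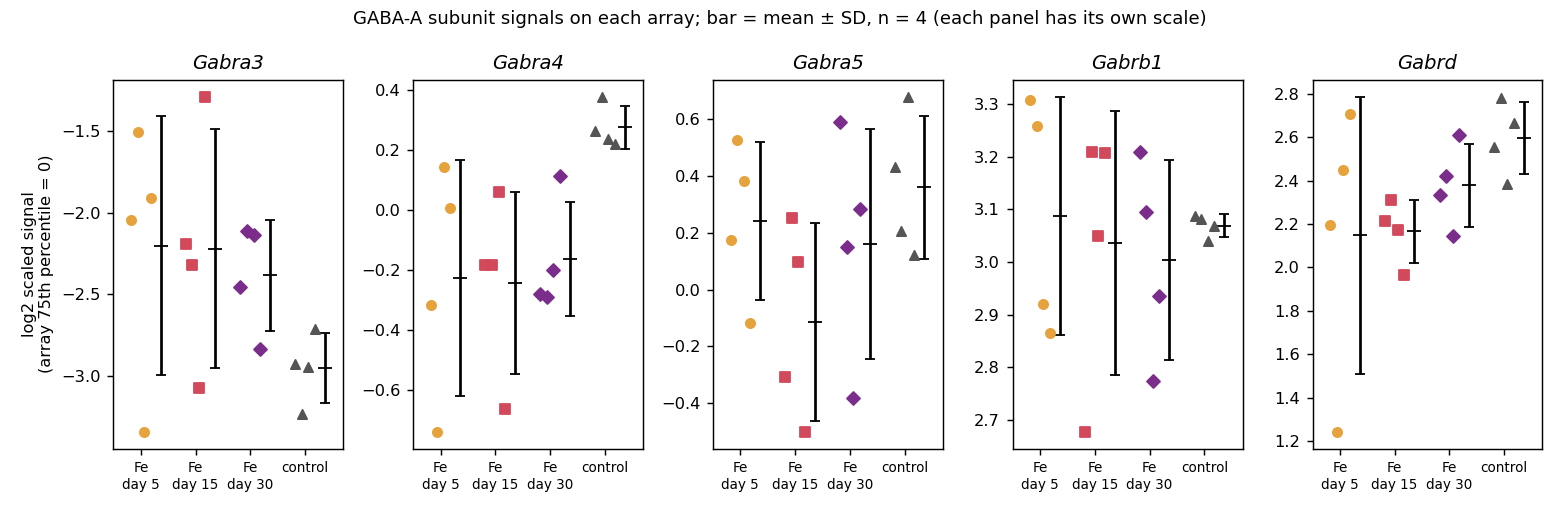
Log2 scaled signal of the 5 measured subunits on each array, with 1 point per array and the mean ± SD of 4 arrays beside each group; each panel has its own vertical scale. All 12 Fe arrays of Gabra4 lie below the 4 control arrays, 9 of 12 Fe arrays of Gabra3 lie above them, and the control arrays of Gabrb1 span 3.04 to 3.09.

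Of the 5 members limma called 0 at day 5, 0 at day 15 and 0 at day 30, where 0.0%, 0.0% and 0.00753% of all features were called. At an unadjusted p under 0.05 and lower in Fe there was 1 member at day 5, 2 at day 15 and 1 at day 30, against 6.28%, 6.33% and 4.66% of all features. At the same threshold and higher in Fe there were 0 on each day, against 4.06%, 5.17% and 3.12%. All 4 Fe arrays lay below all 4 control arrays for 1, 2 and 1 members at days 5, 15 and 30, against 5.09%, 5.73% and 3.63% of all features. They lay above all 4 control arrays for 0 members on each day, against 2.75%, 4.11% and 2.62%. With 5 members the counts of lower members rest on Gabra4 on each day. At day 15 Gabra5 joined Gabra4 at an unadjusted p under 0.05. Gabrd joined Gabra4 on that day where all 4 Fe arrays lay below all 4 control arrays.

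Between the Fe days 0 members were called. The widest shift was in Gabra5, at −0.36 ± 0.22 at Fe day 15 against Fe day 5 and 0.27 ± 0.22 at Fe day 30 against Fe day 15 (limma, adjusted p = 0.776 and 0.876). For Gabra4 the same differences were −0.02 ± 0.18 and 0.08 ± 0.18. Of all features 0.0% were called at an adjusted p under 0.05 at Fe day 15 against Fe day 5, 0.0% at Fe day 30 against Fe day 15 and 0.0% at Fe day 30 against Fe day 5.

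**Figure D2:**
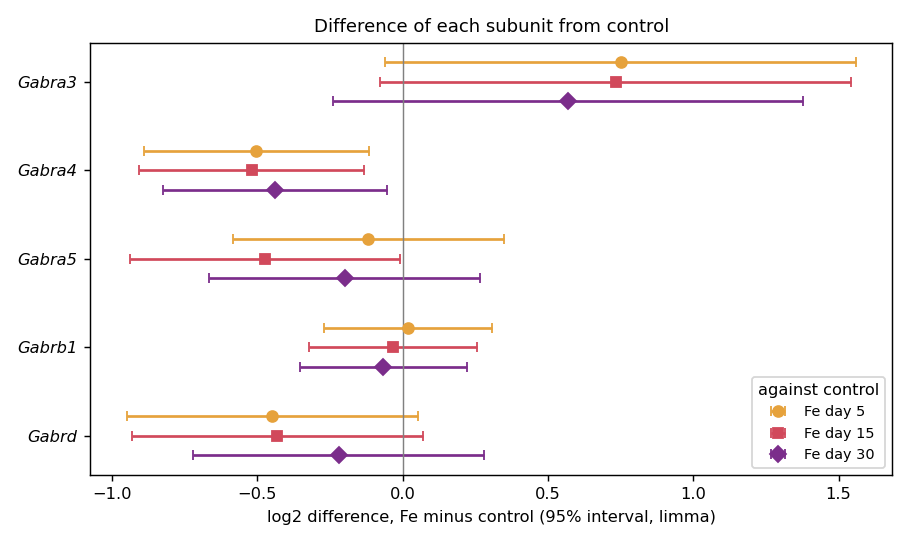
Log2 difference of each subunit, Fe minus control, with its 95% interval from limma, for days 5, 15 and 30. The 3 intervals of Gabra4 lie below 0 before adjustment for 26565 features, as does that of Gabra5 at day 15, and every interval of Gabra3, Gabrb1 and Gabrd includes 0.

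Extrasynaptic subunits were set against synaptic ones on each array, as the mean log2 difference from control of Gabra4, Gabra5 and Gabrd minus that of Gabra3, the sole synaptic alpha subunit of the set with a probe. The mean was −1.11 ± 1.03 in Fe day 5, −1.21 ± 0.96 in Fe day 15 and −0.85 ± 0.53 in Fe day 30 (SD, n = 4 each), against a range of −0.31 to 0.32 over the control arrays. The extrasynaptic part alone was −0.36 ± 0.28, −0.47 ± 0.24 and −0.29 ± 0.21, and Gabra3 alone was 0.75 ± 0.79, 0.73 ± 0.73 and 0.57 ± 0.34 (SD). Most of the contrast and of its spread thus came from the 1 dim Gabra3 probe, and 3 of the 12 Fe arrays lay inside the control range, replicate 3 of Fe day 5 at 0.30, replicate 3 of Fe day 15 at −0.18 and replicate 4 of Fe day 30 at −0.19. The contrast at day 15 was −0.79 without replicate 4 of Fe day 15. These values are a description, and no p is given for a score over the members. Since Gabra3 and Gabra4 have known exceptions to the division, each member is also given alone above.

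**Figure D3:**
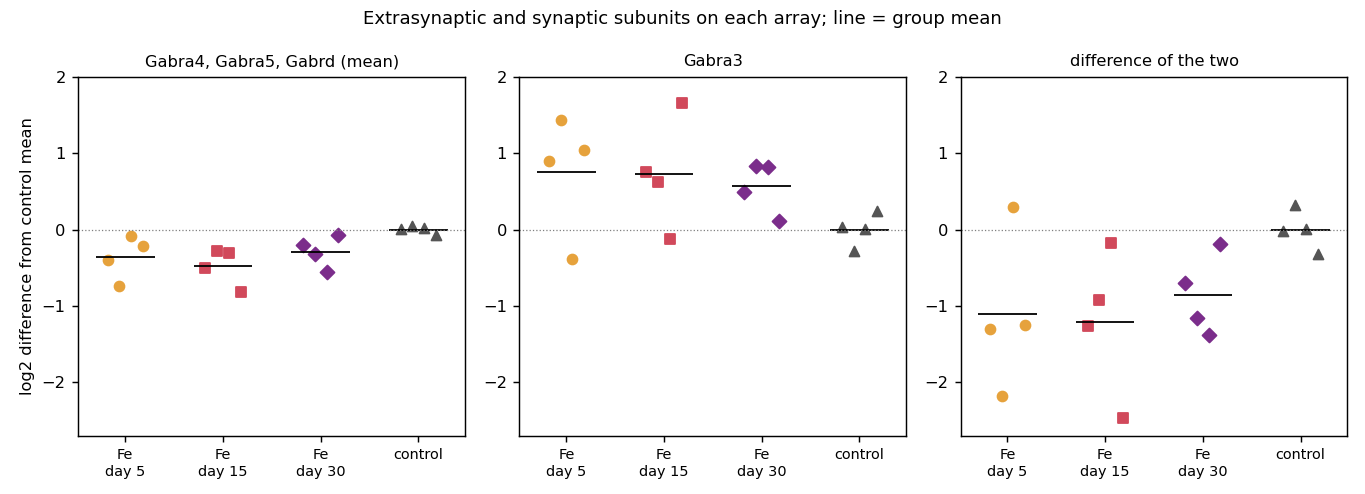
Mean log2 difference from the control mean of Gabra4, Gabra5 and Gabrd, that of Gabra3, and the first minus the second, with 1 point per array and a line at the group mean. The contrast averages −1.11, −1.21 and −0.85 in Fe day 5, 15 and 30 and lies between −0.31 and 0.32 on the control arrays.

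Some subunit signals covaried across the 12 Fe arrays. Gabra3 and Gabra4 ran in opposite directions, at a Pearson r of −0.86 and a Spearman rho of −0.80. By permutation the adjusted p over 70 relations was 0.0170 for r and 0.0518 for rho, so that r passed 0.05 and rho did not. The r was −0.82 without the 2 arrays farthest in Gabra3, and −0.85 after the mean of each day was removed. Gabra4 and Gabrd ran in the same direction at r = 0.79 (permutation, adjusted p = 0.0189) and rho = 0.66 (adjusted p = 0.170), but r was 0.48 without the 2 farthest arrays, so the relation rests on those. No slide held enough arrays for a value within slides.

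Markers of the dentate gyrus, whose granule cells are the main site of alpha4 and delta, varied with Gabra4 and opposite to Gabra3. The dentate score of an array is the median, over 7 markers, of the log2 level minus its control mean. It ran from −0.50 to 0.11 in Fe day 5, from −0.78 to −0.10 in Fe day 15 and from −0.46 to −0.17 in Fe day 30, against −0.09 to 0.09 in control. Over the 12 Fe arrays the score correlated with Gabra3 at r = −0.89 and rho = −0.85 (permutation, adjusted p = 0.0112 and 0.0518) and with Gabra4 at r = 0.83 and rho = 0.82 (adjusted p = 0.0170 and 0.0518). Without the 2 arrays farthest in the subunit, r was −0.81 and 0.71. For Gabrd the values were r = 0.58 and rho = 0.69 (adjusted p = 0.233 and 0.130). The summed level of the 7 markers was 29.9 to 44.1 in Fe day 5, 31.5 to 42.9 in Fe day 15 and 33.0 to 45.4 in Fe day 30, against 44.2 to 53.7 in control, in units of the 75th percentile. Of the 7 markers 4, 6 and 6 were lower in Fe at days 5, 15 and 30 and 3, 1 and 1 higher. At an unadjusted p under 0.05 in limma, 1, 4 and 0 were lower, against 6.28%, 6.33% and 4.66% of all features. Those higher were 0, 1 and 0, against 4.06%, 5.17% and 3.12%. No measured dentate marker was below background on every array. Replicate 4 of Fe day 15 and replicate 2 of Fe day 5 had the lowest scores, and without these 2 arrays, an alternative added after the data were seen, Gabra4 differed by −0.33, −0.38 and −0.44 at days 5, 15 and 30. In whole tissue, fewer cells of a type and less RNA per cell cannot be told apart, and the part of the markers in the subunit differences was not tested.

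**Figure D4:**
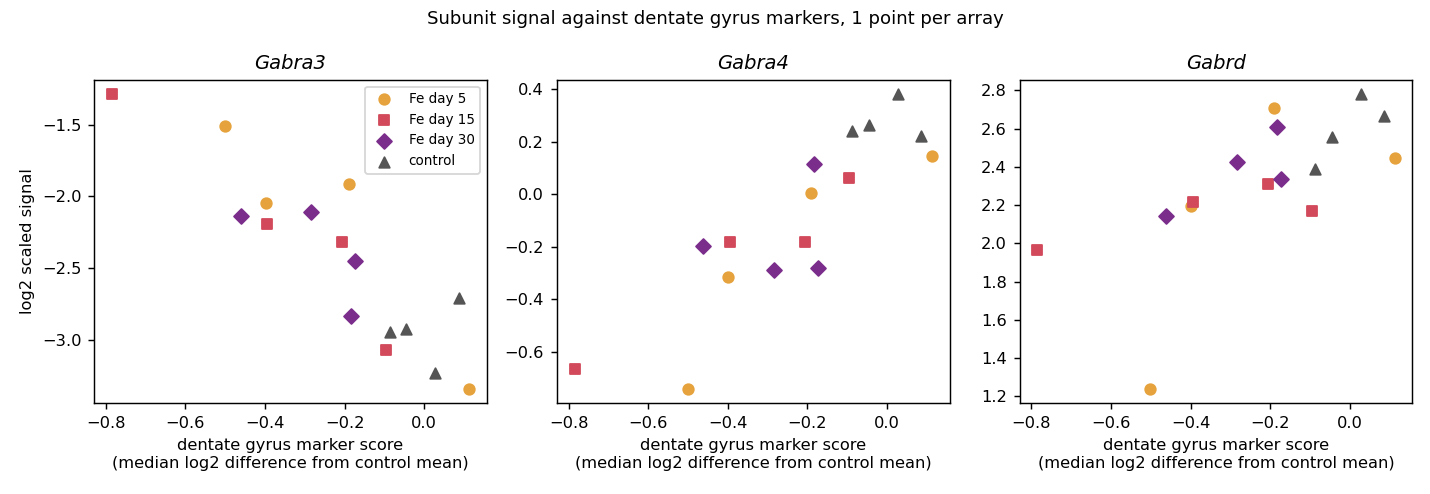
Log2 scaled signal of Gabra3, Gabra4 and Gabrd against the dentate gyrus marker score, with 1 point per array for the 12 Fe and 4 control arrays. Over the Fe arrays r is −0.89 for Gabra3 and 0.83 for Gabra4, and the score is lowest, at −0.78, in replicate 4 of Fe day 15.

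Gabra5 varied with other markers. Over the 12 Fe arrays it correlated with the CA3 score at r = 0.80 and rho = 0.81 (permutation, adjusted p = 0.0288 and 0.0518), and r was 0.86 without the 2 farthest arrays. It ran opposite to markers of thalamus and striatum, which border the hippocampus in a dissection, at r = −0.76 and rho = −0.78 (adjusted p = 0.0224 and 0.0536). With astrocyte markers it correlated at r = −0.74 and rho = −0.70 (adjusted p = 0.0422 and 0.130). The summed level of 8 thalamus and striatum markers was 1.65 to 4.02 in Fe day 5, 1.85 to 10.98 in Fe day 15 and 1.88 to 2.67 in Fe day 30, against 1.87 to 2.02 in control, and the highest score was that of replicate 4 of Fe day 15. That of 7 CA3 markers was 22.4 to 41.3, 17.2 to 37.5 and 28.9 to 35.0 in Fe day 5, 15 and 30, against 33.2 to 46.6 in control. The CA3 markers were split, with 4, 4 and 3 lower in Fe and 3, 3 and 4 higher at days 5, 15 and 30. At an unadjusted p under 0.05 in limma, 1, 3 and 0 were lower, against 6.28%, 6.33% and 4.66% of all features. Those higher were 2, 2 and 2, against 4.06%, 5.17% and 3.12%. Gabrd correlated with the CA1 and subiculum score at r = 0.80 and rho = 0.65 (adjusted p = 0.0224 and 0.172), and r was 0.47 without the 2 farthest arrays. The summed level of the 6 CA1 and subiculum markers was 1.71 to 17.2 in Fe day 5, 6.48 to 15.2 in Fe day 15 and 3.63 to 17.9 in Fe day 30, against 14.7 to 18.8 in control. Of these markers 6, 5 and 6 were lower in Fe at days 5, 15 and 30, where 54.2%, 49.7% and 53.4% of all features were lower. Their median log2 differences were −0.68, −0.37 and −0.59, and 0 were called. At an unadjusted p under 0.05 in limma, 2, 0 and 1 were lower, against 6.28%, 6.33% and 4.66% of all features. On each day 0 were higher, against 4.06%, 5.17% and 3.12%. Microglia and macrophage markers, 10 measured, had a summed level of 76.0 on replicate 4 of Fe day 15 and 67.8 on replicate 3 of Fe day 30, against 27.4 to 44.1 on the other Fe arrays and 35.2 to 38.0 in control. Their r over the Fe arrays was −0.54 with Gabra4 and −0.49 with Gabra5 (permutation, adjusted p = 0.233 and 0.320). The part of these markers in the subunit differences was not tested. Of the 70 relations, 8 had an adjusted p under 0.05 for r.

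The Gabrd and Gabra5 differences shifted when the 3 arrays high in choroid plexus or meningeal transcripts were left out. Without them Gabrd differed from control by −0.15, −0.43 and −0.14 at days 5, 15 and 30 and Gabra5 by −0.33, −0.47 and −0.02. Gabra4 differed by −0.43, −0.52 and −0.43 and Gabra3 by 0.97, 0.73 and 0.49. All 10 measured choroid plexus markers and all 9 of the meninges were higher in Fe at days 5 and 30, where 54.2% and 53.4% of all features were lower. At an unadjusted p under 0.05 in limma, 5, 0 and 0 meningeal markers were higher at days 5, 15 and 30, against 4.06%, 5.17% and 3.12% of all features. Of the choroid plexus markers 0 were higher at that threshold on each day. In both lists 0 were lower, against 6.28%, 6.33% and 4.66%. The summed level of the meningeal markers was 10.8 to 113 in Fe day 5, 11.7 to 19.0 in Fe day 15 and 11.8 to 63.3 in Fe day 30, against 10.8 to 12.5 in control, and that of the choroid plexus markers was 1.27 to 32.7, 1.05 to 3.24 and 0.987 to 309.6 in Fe day 5, 15 and 30, against 0.774 to 1.84 in control.

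Within slides, 6 pairs of an Fe and a control array could be formed from the 4 control arrays, with replicates 2 and 3 of control used in more than 1 pair, so that the pairs are not independent. Gabra4 was lower in Fe in 6 of 6 pairs, by log2 differences of −0.58 to −0.12, and Gabra5 in 6 of 6, by −0.59 to −0.03. Gabra3 was higher in 5 of 6 and Gabrd lower in 4 of 6. Gabrb1, whose group means lay close to control, was lower in 5 of 6, at −0.41 to 0.17. All 4 control arrays lay in position 1 of their slide and their Fe partners in other positions, so that position and group cannot be told apart within slides. With slide as a block Gabra4 differed by −0.22, −0.41 and −0.27 at days 5, 15 and 30, and 0 members were called.

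The features most like each subunit over the 16 arrays, among 9587 with a symbol, were given by Pearson's r as a description. For Gabra4 they were Cadm2, a synaptic adhesion protein, and Atp2b1, a calcium pump of the cell membrane, both at 0.96. For Gabra3 they were Fxyd6 at 0.96 and the nicotinic receptor subunit Chrna4 at 0.95, and Neurod2, a transcription factor of excitatory neurons named here after its value was seen, was the most opposite at −0.97. For Gabrd they were the kinase Map2k5 at 0.93 and the potassium channel Kcnj3 at 0.92, and for Gabra5 they were Mmd and G3bp2, both at 0.91. Gabrb1 was most like Sarm1 and Unc5a, both at 0.89. These values share the scaling of each array and the difference between groups.

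Of the 12 other GABA-A subunit genes listed, 8 were measured and 0 were called. At day 5, 6 of 8 were lower in Fe, at day 15 5 of 8 and at day 30 6 of 8, with medians of −0.18, −0.21 and −0.13, against −0.02, 0.00 and −0.01 over all features. At an unadjusted p under 0.05, 1, 1 and 1 were lower, against 6.28%, 6.33% and 4.66% of all features. Those higher were 1, 0 and 0, against 4.06%, 5.17% and 3.12%. The gamma3 subunit Gabrg3, the 1 counted as higher at day 5, differed by 0.71 ± 0.27, 0.53 ± 0.27 and 0.55 ± 0.27 (limma, adjusted p = 0.473, 0.458 and 0.646). Its probe stood at 9.62 ± 2.9 intensity units in control (SD, n = 4) and was well above background on 3 of 4 control arrays. It passed the filter on dim probes through the Fe groups alone, so the filter itself favoured a higher Fe signal. Its level was −6.82 on replicate 3 of control, the array not well above background. Without that replicate, left out after the data were seen, the differences of the means were 0.50, 0.32 and 0.34. The rho2 subunit Gabrr2, also dim, differed by −0.45 ± 0.18, −0.35 ± 0.18 and −0.35 ± 0.18, with adjusted p-values of 0.473, 0.477 and 0.647 in limma. The Gabrr2 level was −4.29 on replicate 4 of control, against −5.27 to −4.71 on the other control arrays. Without that replicate, also left out after the data were seen, the differences of the means were −0.28, −0.18 and −0.18.

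Among genes that place and hold the receptor 0 were called. Of 21 measured scaffold and trafficking genes 16 were lower in Fe at day 5, 15 at day 15 and 16 at day 30, with medians of −0.08, −0.01 and −0.06, where 54.2%, 49.7% and 53.4% of all features were lower. At an unadjusted p under 0.05, 2, 2 and 1 were lower, against 6.28%, 6.33% and 4.66% of all features. On each day 0 were higher, against 4.06%, 5.17% and 3.12%. Slitrk3, an adhesion protein of inhibitory synapses, differed by −0.33 ± 0.12, −0.38 ± 0.12 and −0.35 ± 0.12, and its unadjusted p was 0.0137, 0.00544 and 0.00895 in limma (adjusted p = 0.473, 0.282 and 0.550). Nlgn2, the neuroligin of inhibitory synapses, differed by −0.23 ± 0.10, −0.26 ± 0.10 and −0.18 ± 0.10. Gabarapl1, of a family that carries receptors to the membrane, differed by −0.15 ± 0.07, −0.01 ± 0.07 and −0.08 ± 0.07. Of 13 kinases, phosphatases and anchors that act on the subunits, 12, 11 and 12 were lower at days 5, 15 and 30, with medians of −0.32, −0.13 and −0.20, and 5, 0 and 1 of them were lower at an unadjusted p under 0.05, against 6.28%, 6.33% and 4.66% of all features, and 0 were higher. Prkce, a protein kinase C, differed by −0.41 ± 0.17, −0.34 ± 0.17 and −0.33 ± 0.17, the tyrosine kinase Src by −0.42 ± 0.15, −0.30 ± 0.15 and −0.19 ± 0.15, and the anchor Akap5 by −0.30 ± 0.16, 0.18 ± 0.16 and −0.24 ± 0.16.

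Of the genes that make, move and break down GABA, all 7 measured were higher in Fe at days 5 and 15 and 6 of 7 at day 30, with medians of 0.20, 0.24 and 0.05, and 0 were called. At an unadjusted p under 0.05, 0, 2 and 0 were higher, against 4.06%, 5.17% and 3.12% of all features, and 0 were lower. Gad1, which makes GABA, differed by 0.24 ± 0.14, 0.34 ± 0.14 and 0.25 ± 0.14, with adjusted p-values of 0.513, 0.387 and 0.650 in limma. Abat, which breaks GABA down, differed by 0.08 ± 0.13, 0.29 ± 0.13 and 0.02 ± 0.13, and the glial transporter Slc6a11 by 0.02 ± 0.15, 0.30 ± 0.15 and 0.02 ± 0.15. The Abat level was 1.01 on replicate 1 of Fe day 15, against 0.32 to 0.42 on the other arrays of that day. In control it was 0.14 to 0.32. Gad1 and Slc6a11 also had their highest levels on that Fe array, at 0.80 and −2.65. Markers of interneurons, a list that also holds Gad1, had medians of 0.16, 0.25 and 0.04 over 12 measured genes. Their summed level was 72.6 to 104 in Fe day 5, 92.5 to 113 in Fe day 15 and 64.5 to 98.5 in Fe day 30, against 75.05 to 94.3 in control, and their part was not tested. Both measured GABA-B receptor genes were lower on each day, Gabbr1 by −0.16 ± 0.12, −0.10 ± 0.12 and −0.10 ± 0.12 and Gabbr2 by −0.14 ± 0.09, −0.11 ± 0.09 and −0.06 ± 0.09.

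Of 10 measured genes of chloride and bicarbonate handling, which set the direction of the current through the receptor, 4, 6 and 6 were lower in Fe at days 5, 15 and 30 and 0 were called. At an unadjusted p under 0.05, 2, 1 and 1 were lower, against 6.28%, 6.33% and 4.66% of all features. Those higher were 0, 1 and 0, against 4.06%, 5.17% and 3.12%. Car7, the neuronal carbonic anhydrase, differed by −0.85 ± 0.26, −0.73 ± 0.26 and −0.58 ± 0.26, with an unadjusted p of 0.00577, 0.0143 and 0.0432 in limma (adjusted p = 0.473, 0.341 and 0.637). The chloride channel Clcn2 differed by −0.38 ± 0.15, −0.08 ± 0.15 and −0.27 ± 0.15, and Oxsr1, a kinase of chloride cotransporters, by 0.19 ± 0.09, 0.21 ± 0.09 and 0.15 ± 0.09. All 4 measured genes of neurosteroid synthesis and of the benzodiazepine site were higher on each day, among them Dbi, a natural ligand of that site, at 0.30 ± 0.15, 0.32 ± 0.15 and 0.23 ± 0.15. The Dbi level was 5.30 on replicate 4 of control, against 6.01 to 6.15 on the other 3 control arrays and 6.07 to 6.39 on the Fe arrays, and without that replicate, left out after the data were seen, the differences of the means were 0.11, 0.12 and 0.04. In this list 0 genes had an unadjusted p under 0.05. In the same list Srd5a1, a steroid reductase, stood at 0.01 ± 0.14, 0.19 ± 0.14 and 0.17 ± 0.14, and Tspo, a protein of the mitochondrial membrane, at 0.16 ± 0.46, 0.38 ± 0.46 and 0.65 ± 0.46. The Tspo level was −0.07 on replicate 3 of Fe day 30, against −2.32 to −2.21 on the other arrays of that day. On replicate 4 of Fe day 15 it was −1.04, against −2.49 to −2.10 on the others. On replicates 2 and 3 of Fe day 5 it was −1.65 and −1.74, against −2.81 and −2.62 on the others. The control arrays lay between −2.61 and −2.20.

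Of 7 genes known to couple neuronal activity to subunit transcription, 7, 5 and 6 were lower in Fe at days 5, 15 and 30 and 0 were called. At an unadjusted p under 0.05, 2, 1 and 2 were lower, against 6.28%, 6.33% and 4.66% of all features. Those higher were 0, 1 and 0, against 4.06%, 5.17% and 3.12%. Bdnf, a neurotrophin that raises alpha4 transcription in cultured rat neurons, differed by −0.31 ± 0.11, −0.67 ± 0.11 and −0.35 ± 0.11, with adjusted p-values of 0.473, 0.0824 and 0.548 in limma. Its unadjusted p at day 15 was 4.01e-05. Egr3, a factor that acts on the rat Gabra4 promoter, differed by −0.36 ± 0.14, −0.25 ± 0.14 and −0.26 ± 0.14, and Creb1, a factor that binds cyclic AMP response elements, by 0.00 ± 0.09, 0.32 ± 0.09 and 0.12 ± 0.09 (adjusted p = 0.991, 0.240 and 0.709).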

How the data were processed

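RNA of the right hippocampus of 16 rats was measured on Agilent 1-colour arrays. The scanner files deposited by the authors give a processed signal per spot, a linear intensity from which background and spatial trend had been removed, per the file headers. The images were read with Agilent Feature Extraction 9.5, per the submitters' processing notes. The series table the authors deposited held the same intensity in 100% of entries (relative tolerance 1e-06) and was not run separately. For this report log2 signals were taken relative to the 75th percentile of their array. Non-uniform and population-outlier spots were dropped, spots of a probe were averaged, and 30548 probes were kept that stood well above background throughout 1 group or more. The probe of highest mean signal stood for a gene, which gave 26565 features, 9588 of them with a symbol from a RefSeq table (GRCr8, names only). No spot was saturated.

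Differences came from limma 3.58.1 in R 4.3.3, a one-way model of 4 groups with 12 residual degrees of freedom, two-sided, with Benjamini-Hochberg adjustment over all features, and the procedure was tested on simulated data. Precision is limited by the number of arrays, and the residual SD had a median of 0.19. Correlations over 12 arrays used 100000 permutations. The named genes are all members, up to 3 genes of lowest F-test p in each pathway list, and 2 genes most like each member. The members and lists were chosen with earlier results of these data known. Alternatives were other background corrections and scalings, no filter on dim probes, the mean over the probes of a gene, array weights, the 2 groups alone, slide or replicate number as a block, and arrays left out. Same-numbered arrays deviated from their group means with correlations of −0.41 to 0.39 (median −0.04). For arrays of different number these were −0.47 to 0.41 (median 0.01). By this measure same-numbered arrays were not more alike, which cannot exclude a pairing, and the main fit held none. Some other subunits of the receptor are counted but not reported singly here.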

Additional observations from a re-analysis of the deposited data

How the results depend on the processing

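Over 27 alternative settings, 393 of 405 subunit differences kept their sign and 0 were called, with a lowest adjusted p of 0.15. In the main fit Gabrb1 stood at 0.02, −0.03 and −0.07 at days 5, 15 and 30, and Gabra5 at −0.12 at day 5. The 12 that changed sign were 11 of Gabrb1 and 1 of Gabra5 at day 5. For Gabrb1 at day 5 these were −0.00404 with median scaling, −0.175 with slide as a block, −0.0548 and −0.0384 without replicates 1 and 2 of Fe day 5, and −0.0384 without the 2 arrays lowest in dentate markers. At day 15 they were 0.0103 with normexp, 0.00232 with quantile normalization and 0.0864 without replicate 1 of Fe day 15, and at day 30 0.00469 with array weights and 0.0106 without replicate 3 of Fe day 30, alone or with the other 2 arrays of high choroid plexus or meninges levels. Without 1 array at a time Gabrb1 ranged from −0.0548 to 0.0926 at day 5, from −0.0914 to 0.0864 at day 15 and from −0.135 to 0.0106 at day 30, and Gabra5 at day 5 from −0.213 to 0.00119, the last without replicate 4 of Fe day 5. The cause was not tested. Counts of called features, 0 at day 5, 0 at day 15 and 2 at day 30 against control, moved more. At day 15 they were 184 with array weights, 2 with the 2 groups alone, 1 with no filter, 1 with the replicate block, 1 without the 3 arrays with high choroid plexus or meninges levels and 8 without the 2 arrays lowest in dentate markers. At day 30 they were 9 with median scaling, 8 with quantile normalization, 25 with array weights, and 0 with the 2 groups alone, with slide as a block and without the 3 arrays. At day 5 the count was 1 with no filter. Fe day 15 against Fe day 5 gave 2 with array weights and 6 without the 2 arrays lowest in dentate markers, and Fe day 30 against Fe day 5 gave 1 with the 2 groups alone, against 0 in each. Without 1 array at a time the counts ranged from 0 to 10 at day 15 and from 0 to 9 at day 30 against control, and from 0 to 13 for Fe day 15 against Fe day 5. The highest came without replicate 4 of Fe day 15 and, at day 30, without replicate 4 of Fe day 5. The replicate block called 0 members. The contrast of extrasynaptic with synaptic subunits without Gabra3 gave no value, since Gabra3 was its sole synaptic member.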
